A study of Mus musculus with 8 samples.

Results

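The calmodulin kinases are the 10 genes Camkk1, Camkk2, Camk1, Camk1d, Camk1g, Camk4, Camk2a, Camk2b, Camk2d and Camk2g, chosen by symbol. All 10 were found among the 55471 genes of the exonic count table and among the 18513 genes of a second table, which counts exonic and intronic reads separately, and all 10 passed the filter on low counts in each. The Pilo group is 4 samples of male C57BL/6J mice aged 6 to 8 weeks that received 1 mg/kg of scopolamine methyl nitrate, which blocks peripheral muscarinic receptors, and 30 min later 340 mg/kg of pilocarpine, a muscarinic agonist that brings on seizures. They were taken after 100 min, and mice were kept if their seizure behaviour scored 3 to 5 on the Racine scale. The Mock group is 4 samples of mice of the same strain, sex and age that received scopolamine and then saline, with no such selection. The mice of both groups carried CaMKIIalpha-Cre:SUN1-sfGFP, so that a Cre driven by a Camk2a promoter switched on a fluorescent nuclear envelope tag, and forebrain nuclei bearing the tag were pulled down with beads. The nuclei were therefore selected through the promoter of one of the 10 genes, in both groups alike, and whether RNA of the Cre construct adds to the Camk2a count was not tested. Pilocarpine and seizures came together in all Pilo mice, so their effects cannot be told apart.

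Calmodulin kinases turn a rise in cell calcium into protein phosphorylation. Calcium-bound calmodulin opens each kinase, and in one branch the upstream kinases Camkk1 and Camkk2 must also phosphorylate the activation loop of Camk1 family kinases and of Camk4 before these are fully active, while Camkk2 has AMP-activated kinase as a further substrate. In the other branch the Camk2 subunits assemble into large rings whose members phosphorylate each other, which keeps them active after calcium has fallen, and the alpha and beta subunits are among the most abundant proteins of forebrain synapses. Camk4 is largely nuclear in neurons, where it phosphorylates the transcription factor CREB.

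Nuclear polyadenylated RNA was sequenced, and a level in CPM is a count set to a common library total with TMM factors, which set the bulk of genes equal between libraries. The exonic table held 29356788 to 36161448 counts per library, and the intronic columns of the second table held 11928054 to 16703475. Replicate numbers 2 and 3 name each other's library in the second table, in both groups, judged by the correlation over genes, so a number below is that of the table in question. Fos, Arc and Npas4, genes induced by neuronal activity, rose over exons by 3.23, 2.05 and 2.06 on the log2 scale. None of the marker genes of other cell types stood at 0 in all libraries. Of 6 inhibitory neuron markers 2 rose, and their summed level was 153 to 240 CPM in Pilo and 117 to 154 CPM in Mock, and of 4 oligodendrocyte markers 1 rose, with sums of 343 to 610 CPM in Pilo and 268 to 356 CPM in Mock. Of 7 excitatory markers 4 rose and 1 fell, with sums of 1299 to 1425 CPM in Pilo and 1228 to 1451 CPM in Mock. None of 5 astrocyte, 2 oligodendrocyte precursor, 4 microglial and 3 endothelial markers was called, with sums of at most 304 CPM in Pilo and 234 CPM in Mock. With the replicate number as a block, 6 of 6 inhibitory, 2 of 4 oligodendrocyte, 3 of 5 astrocyte, 1 of 2 precursor, 3 of 3 endothelial and 0 of 4 microglial markers rose. Of the 7 excitatory markers 4 rose and 2 fell in the blocked fit. Over all genes 23.8% rose and 23.2% fell with the block, and 15.6% rose and 16.2% fell without it. Pilo replicate 3 of the exonic table had the highest inhibitory, oligodendrocyte, astrocyte, microglial and endothelial sums of any library, the last at 34.2 CPM, against at most 7.16 CPM in the other Pilo libraries. Astrocyte sums were high in replicates 3 and 4 of both groups. They were 304 and 286 CPM there in Pilo, against 142 and 114 CPM in replicates 1 and 2. In Mock they were 210 and 234 CPM, against 124 and 111 CPM. The precursor sum was highest in Pilo replicate 4, at 29.1 CPM. The part of these markers in the results below was not tested. In such pooled nuclei, fewer nuclei of a type and less RNA per nucleus cannot be told apart.

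Over exons, 3 of the 10 kinase genes rose in Pilo against Mock (Camk1g, Camk1 and Camkk1), 1 fell (Camk2g) and 6 did not pass the test, while 31.8% of all 19176 genes tested were called. By direction 15.6% of all genes rose and 16.2% fell, and 4 of 10 called is near the background. Over introns, which are taken here to report mostly RNA not yet spliced, the same 3 rose, and Camkk2 and Camk2g fell, against 41.4% of 13318 genes called, 19.6% higher and 21.9% lower. Intronic counts need not follow a gene's own RNA. Cx3cr1 had 172 to 205 intronic CPM in Pilo but 2.20 to 3.51 exonic CPM. Cask had 0 intronic CPM in all 8 libraries, with 69.1 to 112 exonic CPM. Whether the intronic reads of the 10 genes come from their own unspliced RNA was not tested. The median log2 fold change of the 10 genes was 0.19 over exons and 0.10 over introns, against 0.0050 and -0.0038 for all genes tested. A gene was called at an adjusted p under 0.05 (edgeR, quasi-likelihood, with Benjamini-Hochberg adjustment over all genes). Treatment was the only term of this fit. With the replicate number as a block, 6 of the 10 genes rose and 2 fell over exons, against 23.8% and 23.2% of all genes, as given below. The groups did not overlap for 4 of the 10 genes over exons, 3 higher and 1 lower in Pilo, against 32.0% of all genes, 15.7% higher and 16.2% lower. Over introns they did not overlap for 5, of which 3 were higher and 2 lower, against 37.0% of all genes, 17.8% higher and 19.2% lower. The library with the highest inhibitory, oligodendrocyte, astrocyte, microglial and endothelial sums is Pilo replicate 2 in the second table. Without that library, the intronic changes of Camk1g, Camkk1, Camk1, Camkk2 and Camk2g were 1.97, 1.55, 0.94, -0.68 and -0.27 on the log2 scale, and all still passed. Other libraries with high astrocyte sums stayed in that fit.

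**Figure D1:**
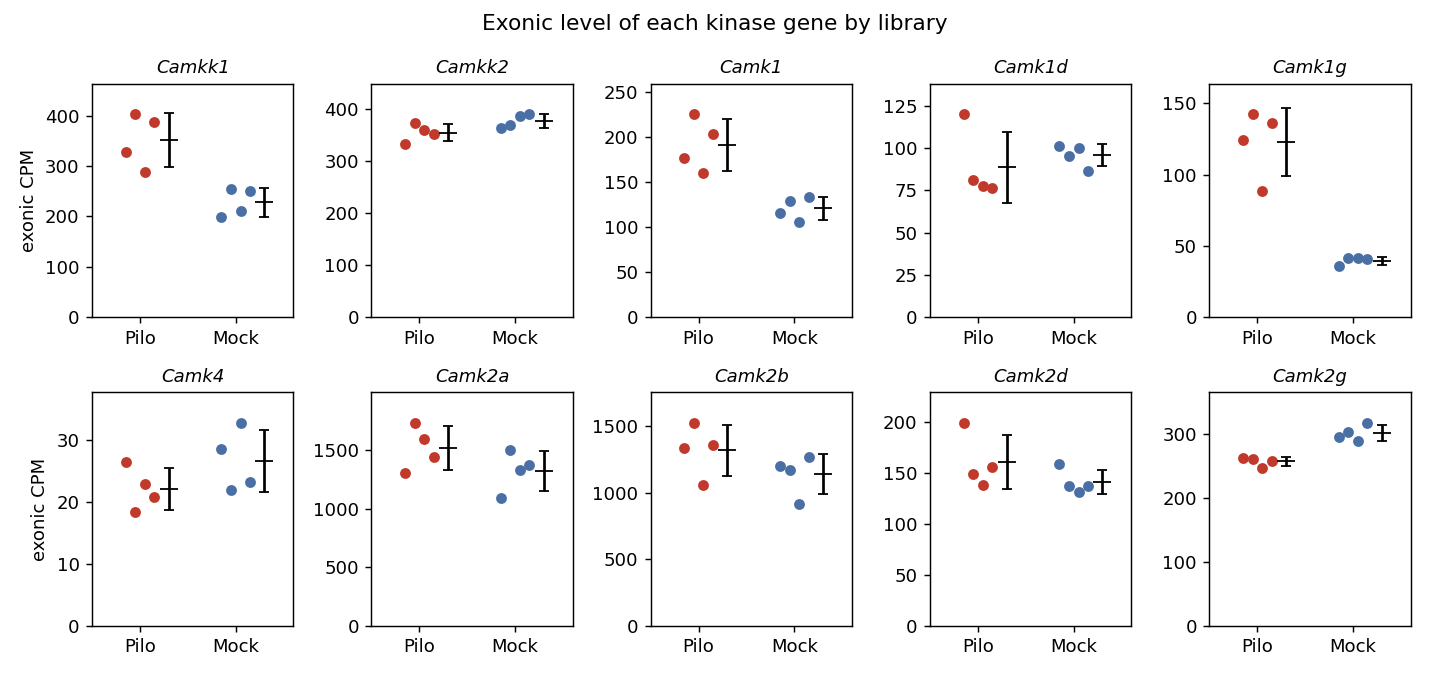
Exonic level in CPM (y axis, from 0) of the 10 kinase genes in each of 4 Pilo (red, left) and 4 Mock (blue, right) libraries, with the mean and SD in black beside them. The groups do not overlap for Camkk1, Camk1, Camk1g and Camk2g, and they overlap for the others.

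Camk1g showed the largest change of the family. It encodes CaMKI gamma, a lipid-anchored form of Camk1 found at neuronal membranes and dendrites. The gene (ENSMUSG00000016179) lies on the minus strand of chromosome 1 of GRCm38, the build also called mm10, from 193346346 to 193370298. Its exonic level was 125, 143, 88.6 and 136 CPM in Pilo replicates 1 to 4, against 35.4, 41.1, 41.4 and 40.6 CPM in Mock replicates 1 to 4. The lowest Pilo library stood well above the highest Mock library, and the Pilo libraries were more spread, with replicate 3 the lowest. The mean was 123 ± 24.1 CPM in Pilo and 39.6 ± 2.81 CPM in Mock (SD, n = 4 each), 3.10-fold higher, or 1.63 on the log2 scale (SE 0.13, adjusted p = 5.44e-06). Without Pilo replicate 3 it was 1.78 (SE 0.08). Among all genes tested it ranked 146 of 19176 by size of rise. Over introns the level was 242, 205, 296 and 261 CPM in Pilo, against 54.2, 76.6, 74.1 and 67.2 CPM in Mock, which is 1.88 higher on the log2 scale (SE 0.13, adjusted p = 1.44e-07). The groups stood apart there as well, and the rise ranked 91 of 13318.

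The genes whose exonic pattern over the 8 libraries was most like that of Camk1g were B4galt1, Sik2 and B230216N24Rik. They were picked from 14661 genes by the mean absolute difference of log2 CPM after centring each gene on its own mean, which was 0.0969, 0.115 and 0.120 on the log2 scale. B4galt1 encodes a galactosyltransferase of the Golgi and Sik2 a salt-inducible kinase, and they rose by 1.66 (SE 0.13) and 1.54 (SE 0.09). B230216N24Rik rose by 1.40 (SE 0.13).

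Camkk1, an upstream kinase of the cascade, rose over exons and by more over introns. The gene (ENSMUSG00000020785, chromosome 11, 73019008 to 73042073, plus strand) had 328, 403, 288 and 387 exonic CPM in Pilo replicates 1 to 4, against 198, 254, 210 and 251 CPM in Mock. Every Pilo library was above every Mock library, again with Pilo replicate 3 the lowest of its group. The means were 351 ± 53.2 CPM in Pilo and 228 ± 28.8 CPM in Mock (SD, n = 4 each), 1.54-fold higher, or 0.62 on the log2 scale (SE 0.12, adjusted p = 0.00147). Without Pilo replicate 3 the change was 0.72 (SE 0.11). Over introns it had 308, 289.6, 429.8 and 401 CPM in Pilo, against 115, 129, 142 and 133 CPM in Mock. The intronic rise on the log2 scale was 1.46 (SE 0.13, adjusted p = 1.04e-06), and the groups were further apart than over exons.

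Camk1, the founding member of the CaMKI group and a substrate of both upstream kinases, rose in both regions. The gene (ENSMUSG00000030272, chromosome 6, 113334124 to 113343984, minus strand) had 177, 225, 159.9 and 203 exonic CPM in Pilo, against 116, 129, 105 and 133 CPM in Mock. Its groups did not overlap, at means of 191 ± 28.9 CPM in Pilo and 121 ± 12.8 CPM in Mock (SD, n = 4 each). The log2 fold change came to 0.66 (SE 0.11, adjusted p = 0.000585), and to 0.76 (SE 0.10) without Pilo replicate 3. Over introns it had 86.8, 77.1, 101 and 86.4 CPM in Pilo, against 47.8, 41.0, 52.9 and 50.0 CPM in Mock. The intronic rise was 0.88 on the log2 scale (SE 0.11, adjusted p = 3.35e-05). Its annotated exons share 232 of 5975 bases with Ogg1, a DNA repair gene on the opposite strand. The strand setting of the counting is not given in the sources used here, and Ogg1 held 1792 exonic counts over all libraries, against 39696 for Camk1.

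**Figure D2:**
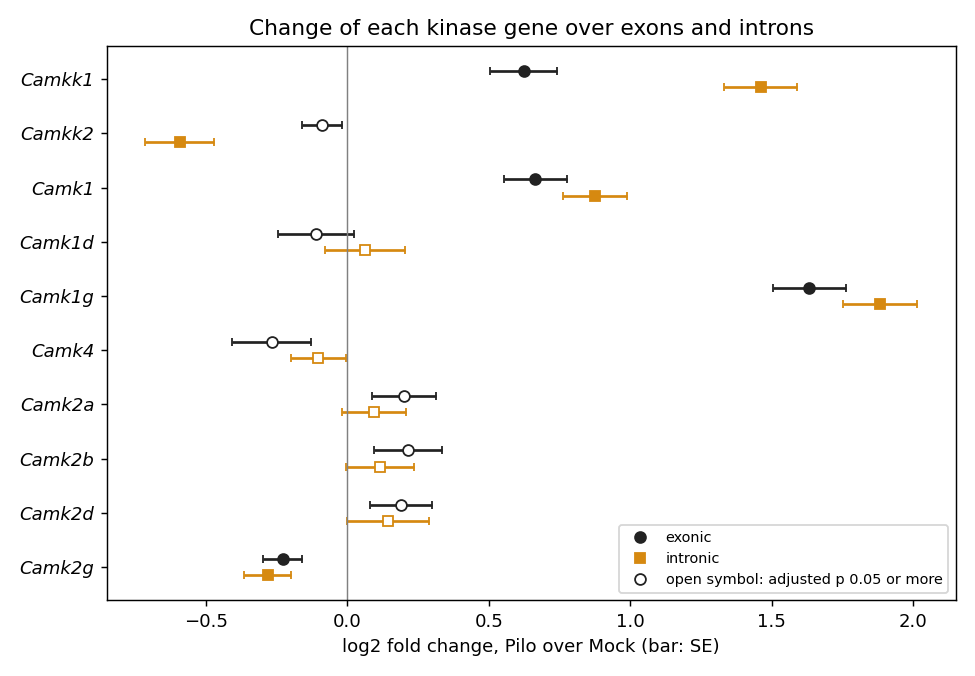
Log2 fold change of Pilo over Mock (x axis) for each of the 10 kinase genes, over exons (black circles) and introns (orange squares), with SE bars. Filled symbols passed the test at an adjusted p under 0.05. Camk1g stands furthest to the right at 1.63 and 1.88, and Camkk1 and Camkk2 show the widest gaps between exons and introns.

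Camk1d, the last of the chosen genes with a Camk1 symbol, did not pass in either region. It encodes CaMKI delta (ENSMUSG00000039145, chromosome 2, 5293457 to 5714515, minus strand) and had 120.3, 81.1, 77.3 and 76.5 exonic CPM in Pilo, against 101, 95.4, 100.4 and 86.8 CPM in Mock. Pilo replicate 1 was above all Mock libraries and the other 3 Pilo libraries were below all of them. The log2 fold change was -0.11 (SE 0.13, adjusted p = 0.573; 95% interval from -0.37 to 0.15). Without Pilo replicate 1 it passed, at -0.29 (SE 0.08, adjusted p = 0.0118). Over introns it had 136, 114, 124 and 159 CPM in Pilo, against 116, 113, 109.9 and 171 CPM in Mock, and it did not pass (0.06, SE 0.14, adjusted p = 0.753). As a ratio of exonic levels per kb of annotated exon, Camk1g stood to Camk1d at 2.79 to 4.79 in Pilo libraries and at 0.942 to 1.26 in Mock libraries.

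Camkk2, the other upstream kinase and an activator of AMP-activated kinase, fell over introns and did not pass over exons. The gene (ENSMUSG00000029471, chromosome 5, 122731170 to 122779409, minus strand) had 71.7, 101, 84.4 and 83.2 intronic CPM in Pilo replicates 1 to 4 of the second table, against 123, 143, 107 and 139.6 CPM in Mock. Every Pilo library was below every Mock library, at means of 85.1 ± 12.1 CPM in Pilo and 128 ± 16.9 CPM in Mock (SD, n = 4 each), which is -0.59 on the log2 scale (SE 0.12, adjusted p = 0.00130). Over exons the levels were 333, 373, 361 and 353 CPM in Pilo, against 364, 369, 388 and 391 CPM in Mock, and these overlapped. The exonic log2 fold change was -0.09 (SE 0.07, adjusted p = 0.379; 95% interval from -0.23 to 0.05). RefSeq draws Camkk2 from 122718380 to 122779522, a longer span than the one given above from GENCODE. Which span the intronic counts used is not given in the sources used here. Overlap of the kinase genes with other genes was checked on the GENCODE spans only. The ratio of Camkk1 to Camkk2 in exonic CPM per kb was 2.34 to 3.21 in Pilo libraries and 1.58 to 2.02 in Mock libraries, without overlap. With the longest transcript as the length it was 1.04 to 1.43 in Pilo libraries and 0.707 to 0.902 in Mock libraries, so which of the genes was higher in Mock depends on the length.

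The start regions of the 3 genes that rose are shown with that of Camkk2, the upstream kinase gene that fell over introns, because these 4 had the largest intronic changes and their start regions differ in make-up. They are RefSeq windows on GRCm38.p6, from 250 bases before the annotated start, and each is cut before any start of the gene that RefSeq or GENCODE places inside those bases. For Camkk1 the window lies before the GENCODE start, but RefSeq extends the gene further, from 73016043, so the printed bases fall within the gene as RefSeq draws it. Capitals mark TGACG on either strand, the core of the cyclic AMP response element that CREB binds.
Camk1g, chr1:193370356-193370532, minus strand: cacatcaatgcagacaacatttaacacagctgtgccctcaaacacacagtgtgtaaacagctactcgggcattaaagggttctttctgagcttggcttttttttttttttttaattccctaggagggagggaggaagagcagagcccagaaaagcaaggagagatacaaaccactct
Camkk1, chr11:73018738-73018987, plus strand: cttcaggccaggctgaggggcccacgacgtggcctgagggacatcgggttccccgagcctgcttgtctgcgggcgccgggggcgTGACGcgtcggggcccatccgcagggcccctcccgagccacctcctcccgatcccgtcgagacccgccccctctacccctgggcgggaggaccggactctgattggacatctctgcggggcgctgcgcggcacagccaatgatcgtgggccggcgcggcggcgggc
Camk1, chr6:113343985-113344172, minus strand: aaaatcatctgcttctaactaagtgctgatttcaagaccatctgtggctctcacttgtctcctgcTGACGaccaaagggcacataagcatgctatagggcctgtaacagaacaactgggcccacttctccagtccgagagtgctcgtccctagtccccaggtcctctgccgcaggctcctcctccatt
Camkk2, chr5:122779523-122779660, minus strand: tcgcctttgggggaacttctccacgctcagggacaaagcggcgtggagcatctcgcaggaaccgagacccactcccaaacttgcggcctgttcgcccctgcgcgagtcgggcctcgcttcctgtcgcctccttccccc
Of the 10 genes, 7 have a window in the table, with 8 windows in all. TGACG occurs once in that of Camk1, at position -185 from its start, once in that of Camkk1, at position -166, and in none of the other 6. Positions count from the start used for the window, not from the end of the printed bases. It occurs in 20.8% of all 32851 windows of the same length, 250 bases before to 50 after a start. The whole element TGACGTCA, which contains TGACG and is found in 1.79% of windows, occurs in none of the 8. Nor do TGANTCA, the site of AP-1 (7.81%), or GCGTGGGCG, the site of EGR factors (0.612%), with both strands searched for all motifs. The 250 bases before the start of Camk1g hold 1 CG dinucleotide and are 44.8% G or C, against 29 and 74.4% for Camkk1, 11 and 58.0% for Camk1, and 32 and 72.4% for Camkk2. These values are for the uncut 250 bases, while 177, 188 and 138 bases are printed for Camk1g, Camk1 and Camkk2. The bases cut there lie within the gene by RefSeq or GENCODE. The median over all windows is 6 and 52.4%. These letters describe the windows only.

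Within the Camk2 family, Camk2g was the 1 subunit gene called without the replicate block, and it fell in both regions. It encodes CaMKII gamma, a subunit that can carry calmodulin to the nucleus. The gene (ENSMUSG00000021820, chromosome 14, 20734875 to 20794088, minus strand) had 262, 261, 246 and 258 exonic CPM in Pilo, against 295, 303, 289 and 317 CPM in Mock. The libraries of each group lay close together and the groups did not overlap, with means of 257 ± 7.24 CPM in Pilo and 301 ± 12.2 CPM in Mock (SD, n = 4 each). The log2 fold change was -0.23 (SE 0.07, adjusted p = 0.0225). Leaving out Mock replicate 1, 2 or 4, or else Pilo replicate 3 or 4, ended this call (adjusted p from 0.0502 to 0.0831), and so did testing with no filter on low counts (adjusted p = 0.0509). Over introns Camk2g had 361, 341, 338 and 356 CPM in Pilo, against 419, 438, 407 and 433 CPM in Mock, which is -0.28 on the log2 scale (SE 0.08, adjusted p = 0.0126). That call held without each single library, at adjusted p up to 0.0408.

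Camk2a and Camk2b, the alpha and beta subunits that dominate in forebrain neurons, had higher means in Pilo but did not pass the test without the replicate block. Camk2a (ENSMUSG00000024617, chromosome 18, 60925618 to 60988152, plus strand) had 1308, 1736, 1595 and 1443 exonic CPM in Pilo, against 1089.5 to 1502 CPM in Mock. Camk2b (ENSMUSG00000057897, chromosome 11, 5969644 to 6066362, minus strand) had 1338, 1525, 1061 and 1357 CPM in Pilo, against 919 to 1265 CPM in Mock. In both, the groups overlapped. The exonic log2 fold changes were 0.20 (SE 0.11, adjusted p = 0.206) and 0.21 (SE 0.12, adjusted p = 0.204) with 95% intervals from -0.023 to 0.42 and from -0.024 to 0.45. Without Pilo replicate 3, Camk2b passed, at 0.32 (SE 0.11, adjusted p = 0.0404). Over introns their log2 fold changes were 0.09 (SE 0.11) and 0.11 (SE 0.12), and neither passed.

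Camk2d, the delta subunit gene best known from heart muscle (ENSMUSG00000053819, chromosome 3, 126596302 to 126846326, plus strand), had 199, 149, 138 and 156 exonic CPM in Pilo, against 158, 137, 131 and 137 CPM in Mock. Replicate 1 was the highest of each group and the groups overlapped, and the change was 0.19 on the log2 scale (SE 0.11, adjusted p = 0.208). Camk4, the nuclear kinase of the family (ENSMUSG00000038128, chromosome 18, 32934931 to 33191228, plus strand), had the lowest exonic CPM of the 10 genes. It stood at 26.5, 18.4, 22.9 and 20.8 CPM in Pilo, against 28.6, 21.9, 32.8 and 23.3 CPM in Mock, and did not pass (-0.27, SE 0.14, adjusted p = 0.169). Over introns neither passed, at 0.14 (SE 0.15) for Camk2d and -0.10 (SE 0.10) for Camk4. Of the 3259 annotated exon bases of Camk4, 72 are shared with an antisense gene, 2310026I22Rik, which held 403 exonic counts over all libraries against 6310 for Camk4.

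The replicate numbers were found to pair the libraries, since libraries of the same number deviated together from their group means. With the number as a block, 6 of the 10 genes rose and 2 fell over exons, against 47.0% of all genes called, 23.8% higher and 23.2% lower. Camk2a passed at 0.20 (SE 0.05, adjusted p = 0.00412), Camk2b at 0.21 (SE 0.05, adjusted p = 0.00368), Camk2d at 0.18 (SE 0.05, adjusted p = 0.0112) and Camk4 at -0.26 (SE 0.08, adjusted p = 0.00950). Within pairs, Camk2a was higher in Pilo in 4 of 4, by 0.067 to 0.26 on the log2 scale, and Camk2b in 4 of 4, by 0.10 to 0.38. Camk2d was higher in Pilo in 4 of 4 pairs and Camk4 was lower in 4 of 4, by 0.11 to 0.52. Camk1d and Camkk2 still did not pass over exons, at adjusted p = 0.226 and 0.157. Over introns the block left 3 of the 10 genes higher and 2 lower, the same 5 calls, against 56.9% of all genes, 27.7% higher and 29.2% lower.

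**Figure D3:**
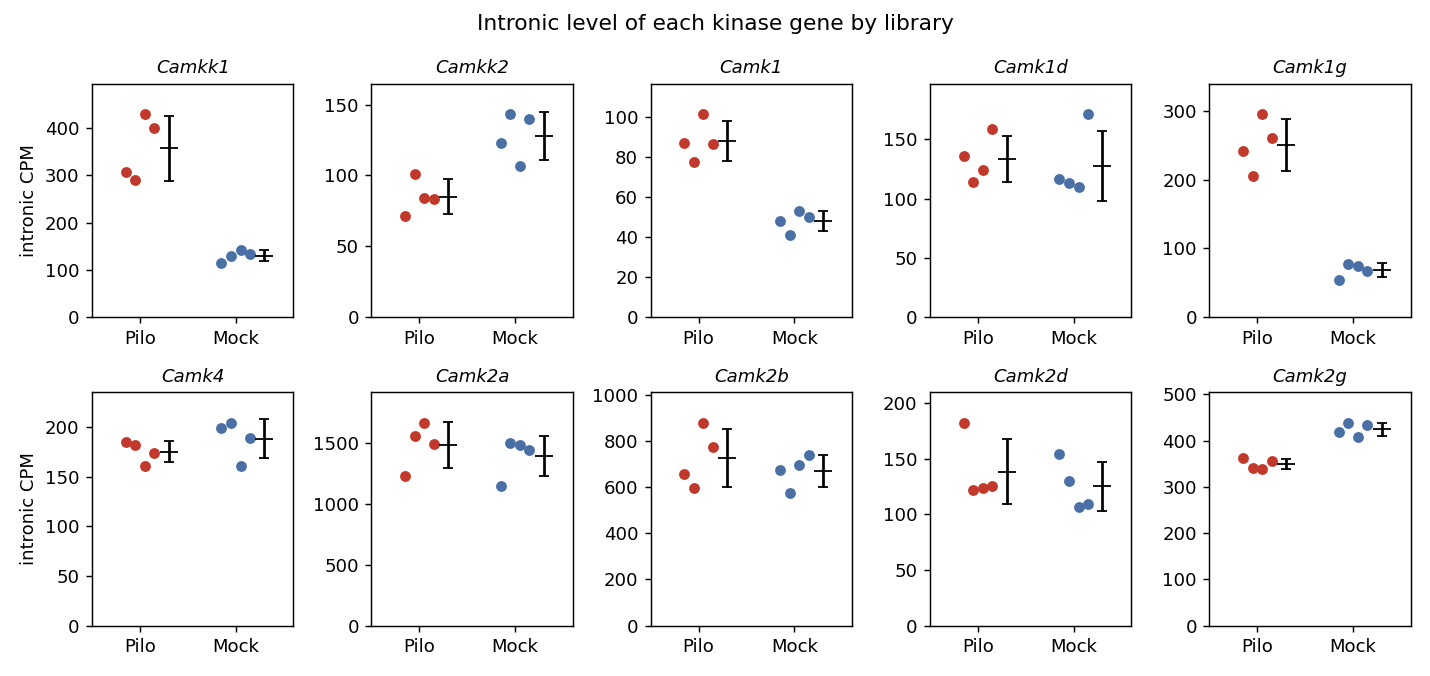
Intronic level in CPM (y axis, from 0) of the 10 kinase genes in each of 4 Pilo (red, left) and 4 Mock (blue, right) libraries of the second table, with the mean and SD in black beside them. The groups do not overlap for Camkk1, Camkk2, Camk1, Camk1g and Camk2g.

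The second table asks whether the change over exons differed from that over introns of the same gene, tested as a region-by-treatment term in a model that also held each sample's own level. Of the 10 genes, 1 was called higher and 3 lower over exons than over introns, against 26.2% of 13047 genes tested, with 13.5% of all genes higher over exons and 12.8% lower. For Camkk1 the exonic change was smaller than the intronic change by 0.85 on the log2 scale (difference -0.85, SE 0.07, adjusted p = 4.34e-06). Camkk2, whose intronic level fell, went the other way, with a difference of 0.48 (SE 0.09, adjusted p = 0.00237). Both calls held without each single library. Camk1g had a difference of -0.29 (SE 0.08, adjusted p = 0.0199), which was lost without Mock replicate 1 (adjusted p = 0.0620). Camk1 had a difference of -0.24 (SE 0.07, adjusted p = 0.0216). Leaving out Mock replicate 2 or 4, or else Pilo replicate 1, ended that call (adjusted p up to 0.0584). The Camk2 subunit genes had differences from 0.028 to 0.084 and none passed. In the fit blocked on replicate number, Camk1d and Camk4 were also lower over exons than over introns, at -0.24 (SE 0.07, adjusted p = 0.0124) and -0.19 (SE 0.07, adjusted p = 0.0327), against 39.3% of all genes called. There, 1 of the 10 genes was higher and 5 were lower, against 20.5% and 18.7% of all genes. Without Mock replicate 4, Camk1d passed as well, at -0.43 (adjusted p = 0.0498).

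The raw shares of reads show the same contrast. Intronic reads made up 27.3, 27.3, 30.6 and 29.2% of Camkk1 reads in Pilo, against 21.2, 21.9, 19.8 and 20.4% in Mock. For Camkk2 the intronic share was 7.94, 9.48, 8.57 and 8.60% in Pilo, against 13.6, 14.5, 11.4 and 14.8% in Mock. So the share was higher in every Pilo library for Camkk1 and lower in every Pilo library for Camkk2. Over all genes of the table it averaged 30.0% ± 0.627 in Pilo and 33.0% ± 0.799 in Mock (SD, n = 4 each), without overlap. The test scales each region on its own and so measures a gene against this common shift. The share of Camk1 overlapped while its difference was called, at 15.4% ± 0.802 in Pilo and 15.5% ± 0.464 in Mock (SD, n = 4 each). The Camk1g share also overlapped, at 44.9% ± 1.61 in Pilo and 44.0% ± 1.79 in Mock (SD, n = 4 each). The difference of mean shares, Pilo minus Mock, was -4.81, -3.59 and -4.45 percentage points for Camk2a, Camk2b and Camk2g, -4.92 points for Camkk2 and -2.98 points over all genes. These points do not rank the genes, since the Mock shares differ, at 39.4% for Camk2g and 13.6% for Camkk2. The test called Camkk2 and none of the Camk2 subunit genes. The share of Camk4 overlapped, at 73.6 to 78.4% in Pilo and 74.0 to 79.7% in Mock. Shares are compared here only within a gene, since they depend on intron length.

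**Figure D4:**
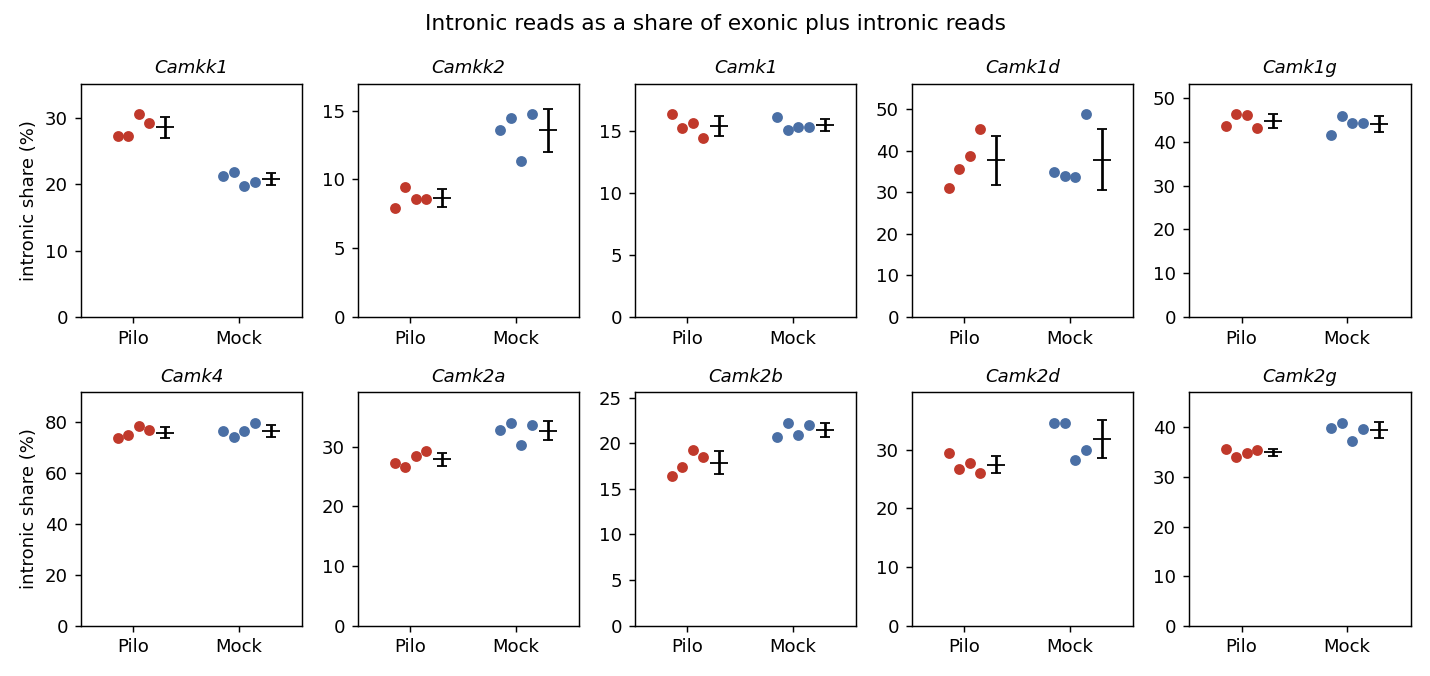
Intronic reads as a percentage of exonic plus intronic reads (y axis, from 0) for each kinase gene in 4 Pilo (red, left) and 4 Mock (blue, right) libraries, with mean and SD in black. Camkk1 is higher and Camkk2, Camk2a, Camk2b and Camk2g are lower in every Pilo library than in any Mock library. Over all genes of the table the share was also lower in every Pilo library, at a mean of 30.0% against 33.0% in Mock. How many of all genes stand apart in this share was not counted.

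Levels of different genes were compared as exonic CPM per kb of the gene's annotated exons. Camk2a was highest, at 204 ± 24.8 per kb in Pilo and 177 ± 23.1 in Mock, then Camk2b at 145 ± 21.1 in Pilo and 125 ± 16.6 in Mock, and Camkk1 at 94.3 ± 14.3 in Pilo and 61.2 ± 7.72 in Mock (SD, n = 4 each). In Mock, Camk2g, Camkk2, Camk1, Camk1g, Camk1d, Camk4 and Camk2d followed, and neighbours in this order overlapped between libraries only for Camk1g with Camk1d and for Camk4 with Camk2d. Camk1g ranked 4 of 10 in Pilo, at 44.5 ± 8.72 per kb, and 7 of 10 in Mock, at 14.4 ± 1.02 per kb (SD, n = 4 each), but 7 and 8 of 10 per kb of the longest transcript. In Pilo its libraries overlapped those of Camk2g, those of Camkk2 overlapped Camk1, and those of Camk2d overlapped Camk4. Within the Camk2 family, Camk2g made up 10.2% ± 0.784 of the summed level per kb in Pilo and 13.3% ± 0.704 in Mock, and Camk2a 51.5% ± 4.21 in Pilo and 49.9% ± 4.39 in Mock (SD, n = 4 each). The ratio of Camk2a to Camk2b was 1.20 to 1.84 in Pilo libraries and 1.11 to 1.77 in Mock libraries. With the length of the longest transcript in place of all exons, Camk2b was first in both groups, at 320 ± 46.6 per kb in Pilo and 276 ± 36.7 in Mock, and overlapped Camk2a (SD, n = 4 each). By that length Camkk1 ranked 3 of 10 in Pilo but 5 of 10 in Mock, below Camk2g and Camkk2, and Camk1 ranked 4 of 10 in Pilo and 6 of 10 in Mock. The order of the genes thus depends on the length used. The annotated exons of Camk2d add up to 22.5 kb while its longest transcript has 5.52 kb, so its level per kb is low by the first measure.

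**Figure D5:**
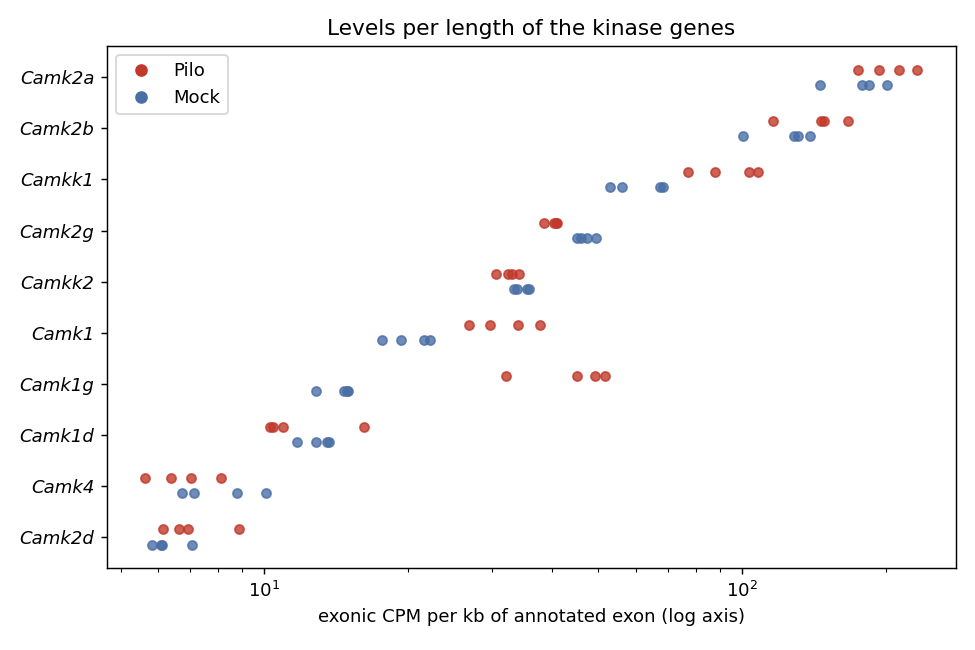
Exonic CPM per kb of annotated exon (x axis, log scale) for the 10 kinase genes, ordered by the Mock mean, with 4 Pilo libraries in red above and 4 Mock libraries in blue below in each row. By this length the Mock points of Camk1g lie near those of Camk1d and its Pilo points near those of Camk2g. By the longest transcript its rank differs by 1 place between the groups (7 in Pilo, 8 in Mock).

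Other genes of calcium and calmodulin signalling were counted by list over exons. Of 7 genes for calmodulin and proteins that bind it in the resting state, 5 rose and none fell, with a median log2 fold change of 0.37 against 0.0050 for all genes, of which 15.6% rose and 16.2% fell. These shares also stand beside the counts of the lists that follow. Calm2 and Calm3, which encode calmodulin, rose by 0.37 (SE 0.07) and 0.36 (SE 0.08), and Gap43, a growth cone protein that binds calmodulin, by 0.37 (SE 0.07). Of 7 inhibitors and anchors of CaMKII, 2 rose and 1 fell, with a median of 0.057. Camk2n2, a CaMKII inhibitor protein, rose by 0.58 (SE 0.07), and Lrrc7, the scaffold densin-180, fell by 0.35 (SE 0.09). Cask, a synaptic scaffold with a kinase-like domain, rose by 0.30 (SE 0.10), a call that ended when Mock replicate 2 or 4, or else Pilo replicate 1 or 4, was left out (adjusted p up to 0.107) and in the exonic columns of the second table (adjusted p = 0.0552). Camk2n2 also rose over introns, by 1.30 (SE 0.18). Lrrc7 did not fall there, at 0.15 (SE 0.09, adjusted p = 0.166), and it was called higher over introns in the blocked fit (adjusted p = 0.0246). Its exonic change lay below its intronic change, with a difference of -0.53 (SE 0.08, adjusted p = 0.00041).

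Of 10 other kinases regulated by calmodulin, 1 rose and 1 fell, with a median of 0.059, which is not above the share of all genes either way. Itpkb, an inositol trisphosphate kinase, rose by 0.68 (SE 0.17), and Eef2k, which inhibits translation elongation, fell by 0.36 (SE 0.09). Camkv, a kinase-like protein without activity, had a change of 0.22 (SE 0.14, adjusted p = 0.260), which was called in the blocked fit (adjusted p = 0.00468). Of 10 genes for calcineurin, its regulators and phosphatases of calmodulin kinases, 3 rose and 2 fell, with a median of 0.21. Rcan1, a calcineurin inhibitor, rose by 0.41 (SE 0.08) and Ppp3r1, the regulatory subunit of calcineurin, by 0.28 (SE 0.08). The call of Ppp3r1 was lost without Mock replicate 2 or 4, at adjusted p up to 0.0644. Ppm1f, a phosphatase that removes the activating phosphate from calmodulin kinases, fell by 0.49 (SE 0.08).

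Of 14 genes for proteins downstream of the upstream kinases, Camk1 and Camk4, 6 rose and 1 fell, with a median of 0.21. Hdac5 and Hdac4, histone deacetylases that leave the nucleus when calmodulin kinases phosphorylate them, rose by 0.98 (SE 0.14) and 0.49 (SE 0.10). Prkag1, a subunit of AMP-activated kinase, rose by 0.49 (SE 0.11). Creb1 itself had a change of -0.06 (SE 0.11, adjusted p = 0.704) and was named after its value was seen. In the blocked fit, 6 of the 7 calmodulin genes, 3 of the 7 CaMKII inhibitors and anchors, 2 of the 10 other kinases, 7 of the 10 calcineurin and phosphatase genes and 8 of the 14 downstream genes rose, against 23.8% of all genes. The 5 lists had 0, 1, 1, 2 and 1 genes lower in that fit, in the same order, against 23.2% of all genes. Over introns the counts are read against 19.6% of all genes higher and 21.9% lower. Of 6 calmodulin genes tested there 5 rose and none fell (median 0.56), and of 6 CaMKII inhibitors and anchors 1 rose and none fell (median 0.096). Of the 10 other kinases 1 rose and 2 fell (median 0.24), of the 10 calcineurin and phosphatase genes none rose and 3 fell (median 0.048), and of the 14 downstream genes 3 rose and 3 fell (median 0.037). Among the genes named by list, Calm2, Calm3, Gap43, Camk2n2, Hdac5 and Prkag1 rose over introns too, and Ppm1f and Eef2k fell. Lrrc7, Rcan1, Hdac4, Itpkb, Camkv and Creb1 were not called there, nor was Ppp3r1, at -0.21 (SE 0.19). Cask was not tested over introns.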

How the data were processed

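The deposited values are raw counts of reads for each gene. Named in the submitters' processing notes, without saying what each did, are HTSeq 0.11.2, STAR 2.7.1a, Trimmomatic 0.39, edgeR, R 4.1.1 and the build mm10. How intronic reads were set apart, with which strand setting and annotation release, is not given in the sources used here. Gene places are from GENCODE vM21 on GRCm38, where 55230 of 55471 Ensembl identifiers matched, and 18507 of 18513 Entrez identifiers matched RefSeq. The 10 genes and the lists were chosen with earlier results of these data known.

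The test on counts was the quasi-likelihood test (robust) of edgeR 4.0.16 under R 4.3.3, with TMM scaling, filterByExpr at a minimum count of 10, treatment as the only term and Benjamini-Hochberg adjustment over all genes. The SE is the fitted coefficient divided by the square root of F. For exons against introns, scaling factors were set per region. The code was tested on simulated data. The rule for named genes took the 10 kinases, Fos, Arc and Npas4, up to 3 genes of smallest exonic p per list, and the 3 genes most like the leading kinase.

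Within groups, the chi-square of counts divided by its degrees of freedom was 8.82 to 30.7 for pairs of libraries, above counting noise, and each library entered as 1 sample. The labels do not say that samples are separate mice, so p-values measure the spread between samples, which may be technical. Deviations of same-numbered libraries from their group means correlated at 0.372, 0.380, 0.400 and 0.377 over exons and at 0.319 to 0.470 over introns, above the limit of 0.1. The numbers were taken as pairs in the replicate block only, and the main fit left this pairing out. Alternatives were RLE scaling, no filter, a minimum count of 30, DESeq2 1.42.0, the replicate block, leaving out each library, and, over exons, the second table's exonic columns.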

Additional observations from a re-analysis of the deposited data

Results flagged for a closer look

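In 60 sets of 4 libraries (10 genes, both groups, exonic CPM, intronic CPM and intronic share), 6 held a library far from the other 3, by Dixon's test at its 95% critical value, which chance passes in about 1 in 20. Camk1d had 120.3 exonic CPM in Pilo replicate 1, against 76.5 to 81.1 CPM in the other Pilo libraries. Camk1d had 171 intronic CPM in Mock replicate 4, against 109.9 to 116 CPM in the other Mock libraries, and an intronic share of 48.8% there, against 33.7 to 34.8%. Camk1g had 35.4 exonic CPM in Mock replicate 1, against 40.6 to 41.4 CPM in the others. Camk2a had 1146 intronic CPM in Mock replicate 1, against 1443 to 1501 CPM in the others. Camk2d had 182 intronic CPM in Pilo replicate 1, against 122 to 125 CPM in the other Pilo libraries.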

How the results depend on the processing

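The calls of Camk1g, Camk1 and Camkk1 in both regions and of Camkk2 and Camk2g over introns held under every alternative run. Other scalings moved the median of all genes by at most 0.018 on the log2 scale. The count of kinase genes lower over exons was 0 with no filter on low counts and 2 with the replicate block, and 0 to 2 when single libraries were left out. With the replicate block, 6 kinase genes were higher over exons, 5 were lower over exons than over introns, and calls over all genes numbered 4572 higher over exons and 2680 higher in the exonic against intronic comparison. It changed no other call among the 10 genes than those given with the results. Directions turned for changes near 0 that passed in neither fit, when single libraries were left out. Over introns, Camk1d ran from -0.032 (without Pilo replicate 4) to 0.24, with -0.0031 without Mock replicate 3, and Camk2d from -0.018 (without Pilo replicate 1) to 0.26. In the difference between regions, Camk2d ran from -0.012 (without Mock replicate 2) to 0.12, with -0.0024 without Mock replicate 1, and Camk2g from -0.0070 (without Mock replicate 2) to 0.050. The cause was not tested. Over exons Camk4 had 563 to 1233 counts per library, the fewest of the 10 genes.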
